A study of Mus musculus with 3 samples.

Results

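A set of 10 mouse genes that Paneth cells or inflamed mucosa secrete against microbes were followed across 3 libraries of intestinal RNA: Lyz1, Mmp7, Ang4, Itln1, Reg3b, Reg3g, Lcn2, Saa3, Ltf and Lrg1. They were taken by symbol, and all 10 of 10 were found among the 21983 genes of the count table. The control library came from dam-fed wild-type pups given PBS. The NEC library came from wild-type pups in a model of necrotizing enterocolitis, an inflammatory bowel disease of the newborn. Those pups also received PBS, were gavaged over 96 h with 33% Esbilac formula (40 µl per feed, 4 h apart), and went through 100 s of 99.9% nitrogen followed by 10 min at 4 °C, repeated at 12 h intervals. The PCI34051+NEC library came from wild-type pups in the same model fed PCI34051, an inhibitor selective for the lysine deacetylase HDAC8, at 10 mg/kg per day for 5 days. The labels give neither strain, age, sex nor intestinal segment, and they do not say whether pups were pooled. With 1 library per group no difference has a replicate check or a p-value, and the values hold for these 3 libraries rather than for the conditions. Feeding, hypoxia and cold differed together between the control and both model libraries and cannot be told apart. The Y-linked gene Kdm5d had 480 counts in control, 0 in NEC and 345 in PCI34051+NEC. The sex of the pups therefore cannot be told apart from NEC against either other library.

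Paneth cells lie at the base of the crypts of the small intestine and release granules of lysozyme, alpha-defensins and lectins into the lumen. In mice they mature after birth, so the newborn intestine holds few of them. Acute phase genes such as Lcn2, Saa3 and Lrg1 are switched on by cytokine signalling through STAT3, NF-kB and C/EBP factors in epithelium, liver, fat, endothelium and myeloid cells. In bulk RNA, fewer cells of a type and less RNA per cell cannot be told apart.

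Promoter sequence is shown for genes whose close relatives or partners differed in level below. The sequences are RefSeq's (GRCm38.p6), run 5′ to 3′ on the gene's strand, and hold the 250 bases before the RefSeq start, less any base inside the GENCODE M21 gene. Capitals mark matches to 5 motifs described after them. Lyz1 and Lyz2 are adjacent lysozyme genes, Reg3a and Reg3g belong to 1 lectin cluster, and Mmp7, Saa3 and Ltf stand for the Paneth cell protease, the acute phase and the iron-binding genes.
Lyz1, chr10:117292869-117293118, minus strand: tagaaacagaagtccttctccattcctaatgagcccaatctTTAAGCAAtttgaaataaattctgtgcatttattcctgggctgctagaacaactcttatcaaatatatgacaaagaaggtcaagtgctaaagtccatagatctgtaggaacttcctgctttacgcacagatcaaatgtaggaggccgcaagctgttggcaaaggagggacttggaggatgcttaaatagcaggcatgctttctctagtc
Lyz2, chr10:117282322-117282522, minus strand: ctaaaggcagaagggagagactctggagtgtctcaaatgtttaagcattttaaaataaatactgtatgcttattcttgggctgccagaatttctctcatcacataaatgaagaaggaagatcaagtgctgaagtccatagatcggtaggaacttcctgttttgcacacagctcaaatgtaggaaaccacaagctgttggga
Reg3a, chr6:78380459-78380708, plus strand: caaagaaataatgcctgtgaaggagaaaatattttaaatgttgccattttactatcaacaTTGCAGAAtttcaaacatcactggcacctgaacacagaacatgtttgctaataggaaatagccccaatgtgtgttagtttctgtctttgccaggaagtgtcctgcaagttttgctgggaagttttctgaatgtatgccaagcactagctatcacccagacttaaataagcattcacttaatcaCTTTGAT
Reg3g, chr6:78468875-78469124, minus strand: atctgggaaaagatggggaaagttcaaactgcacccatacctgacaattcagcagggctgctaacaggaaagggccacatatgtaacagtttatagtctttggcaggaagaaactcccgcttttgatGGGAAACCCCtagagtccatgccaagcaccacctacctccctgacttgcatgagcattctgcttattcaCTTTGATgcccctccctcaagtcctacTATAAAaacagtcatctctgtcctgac
Mmp7, chr9:7691840-7692089, plus strand: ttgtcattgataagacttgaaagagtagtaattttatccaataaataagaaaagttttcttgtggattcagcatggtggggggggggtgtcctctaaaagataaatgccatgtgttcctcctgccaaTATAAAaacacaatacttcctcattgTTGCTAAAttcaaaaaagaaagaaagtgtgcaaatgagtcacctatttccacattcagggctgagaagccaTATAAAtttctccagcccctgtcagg
Saa3, chr7:46715701-46715926, minus strand: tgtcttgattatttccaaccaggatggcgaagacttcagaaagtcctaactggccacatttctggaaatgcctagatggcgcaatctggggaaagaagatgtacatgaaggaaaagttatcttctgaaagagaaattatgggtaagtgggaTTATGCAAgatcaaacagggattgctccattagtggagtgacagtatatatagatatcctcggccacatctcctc
Ltf, chr9:111019042-111019270, plus strand: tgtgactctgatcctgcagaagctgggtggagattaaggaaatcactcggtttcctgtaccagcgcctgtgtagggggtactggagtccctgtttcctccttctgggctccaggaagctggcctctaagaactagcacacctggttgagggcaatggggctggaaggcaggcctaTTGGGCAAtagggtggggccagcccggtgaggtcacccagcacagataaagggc

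All 10 genes had a RefSeq promoter, and the full 250 bases were searched in each and in 27025 promoters in all (the first listed where a gene had more). The C/EBP motif TTNNGCAA, on either strand, stood in the promoters of 5 of the 10 genes (Lyz1, Mmp7, Lcn2, Saa3 and Ltf) and in 9.55% of all promoters. The palindromic STAT motif TTCNNNGAA stood in those of Ang4 and Reg3b, against 7.18% of all. The NF-kB consensus, on either strand, was found in that of Reg3g alone among the 10, against 3.75% of all. The TCF motif CTTTGAT, on either strand, also stood in that of Reg3g, against 3.23%, and the same letters ended the window of Reg3a. TATAAA on the gene's strand was present for Mmp7, Reg3b and Reg3g, against 8.12%. No motif match overlapped another in the sequences shown. Over the full windows, the Lyz1 and Lyz2 promoters were identical in 79.4% of 252 aligned columns, those of Reg3b and Reg3g in 68.4% of 253, and those of Reg3a and Reg3b in 46.1% of 267. A match describes letters in a window and not a bound site.

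Total depth was 15076413 counts in control, 10650638 in NEC and 16497580 with PCI34051, and the 10 genes took 858, 1426 and 989 of these. Levels are given as TMM-normalised CPM, which scales each library's counts to a common total. Log2 folds were taken after adding 1 CPM to each level, that is on the log2(CPM + 1) scale, which understates differences of low genes. Ratios are plain CPM ratios with exact 95% conditional binomial intervals, which cover counting error only. Epithelial markers were present in all 3 libraries, with Epcam at 2731, 404 and 2797 CPM in control, NEC and PCI34051+NEC (the order of values throughout). Muc2, the main mucin of the intestine, was listed at 0 in every library, so a 0 in this table need not mean that a gene was silent.

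The NEC library held far more RNA of most of the 10 genes than the control library, and far less of 1. Genes counted as measured if either library of a comparison reached 1 CPM, and were called at a 2-fold difference on the log2(CPM + 1) scale. By that rule 6 genes were higher in NEC than in control (Lyz1, Mmp7, Itln1, Lcn2, Saa3 and Lrg1), where 24.2% of all 14627 measured genes were, and 1 (Ltf) was lower, where 22.9% were, against 47.1% called in either direction. Reg3b and Reg3g were within 2-fold, and Ang4 was not measured. Of the 9 measured genes, 7 reached 1 CPM only in the NEC library and 1 only in the control library, so a difference of these was partly set by the filter. Removing the filter could not change the counts of called genes, since a 2-fold call after adding 1 CPM already needs 1 CPM in the higher library. The median log2 fold of the 9 measured genes was 3.47, beside -0.03 over all measured genes.

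**Figure D1:**
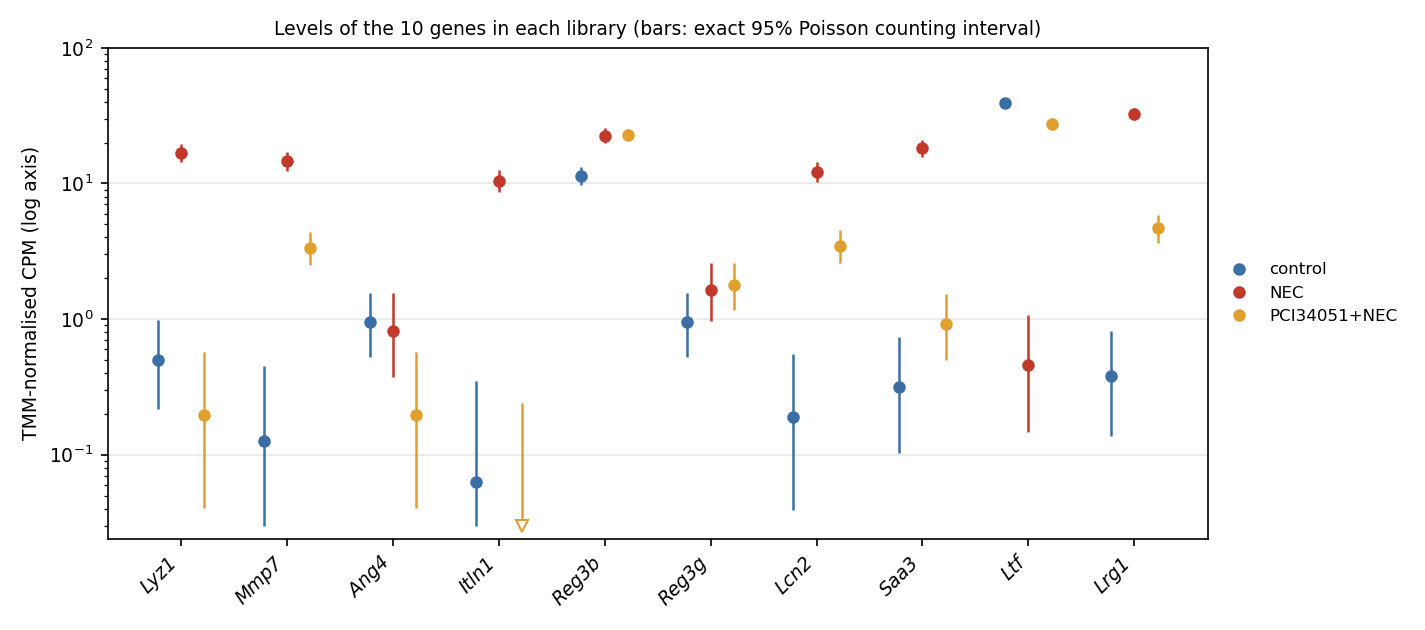
TMM-normalised CPM (log axis) of the 10 genes for control, NEC and PCI34051+NEC, with exact 95% Poisson counting intervals; the open triangle marks a count of 0, and intervals that run below the axis end there. Lyz1, Mmp7, Itln1, Lcn2, Saa3 and Lrg1 peak in NEC, Ltf is lowest there, and Reg3b and Reg3g lie level in both model libraries.

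Against the NEC library, the PCI34051+NEC library showed the opposite sides for the same 7 genes, and both comparisons share the NEC library. Here 6 genes lay 2-fold or more below NEC, where 25.6% of all 14410 measured genes did, and Ltf lay above it, where 25.0% did (50.6% in either direction). The median log2 fold of the 9 measured genes was -1.84, beside 0.01 over all. Of these 9, 3 (Lyz1, Itln1 and Saa3) reached 1 CPM only in NEC and 1 (Ltf) only in PCI34051+NEC. A difference of these 4 genes was thus partly set by the filter. As above, the counts of called genes could not change without the filter. In PCI34051+NEC against control, Mmp7, Lcn2 and Lrg1 were at least 2-fold higher, where 6.55% of all 13652 measured genes were, and none of the 10 was lower, where also 6.55% were (13.1% in either direction). Only 6 of the 10 genes were measured in that comparison, 4 of them through the PCI34051+NEC library alone, and with a pseudocount of 4 in place of 1 none was called. The 6 genes that were highest in NEC comprised genes near the control level with PCI34051 (Lyz1, Itln1 and, within its counting error, Saa3) and genes between the other two libraries (Mmp7, Lcn2 and Lrg1).

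**Figure D2:**
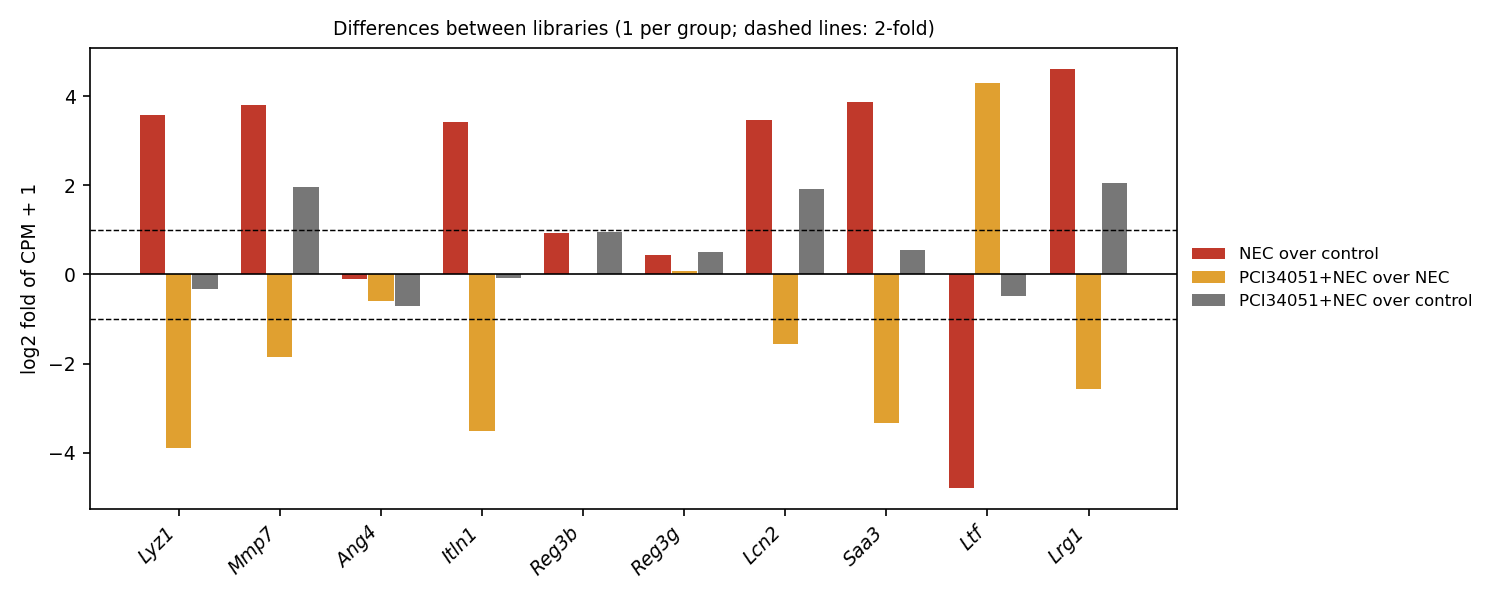
Log2 fold of CPM + 1 for the 10 genes in each comparison of 2 libraries, with dashed lines at 2-fold. Ltf, at -4.78 and 4.29, points the opposite way to the 6 genes that were highest in NEC.

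Lyz1 encodes the lysozyme of Paneth cell granules, which cuts bacterial peptidoglycan (ENSMUSG00000069515, mm10, chr10:117287797-117292868, minus strand, protein-coding). It had 8 counts in control, 184 in NEC and 3 in PCI34051+NEC, or 0.503, 16.8 and 0.197 CPM. Only the NEC library was high. It was 33.4-fold higher in NEC than in control (16.6 to 78.5) and 85.3-fold lower in PCI34051+NEC than in NEC (28.7 to 417). PCI34051+NEC and control differed by less than their counting error, with control 2.55-fold higher (0.613 to 14.9). Lyz2, the lysozyme of macrophages, lies beside Lyz1 and shares much of its promoter, yet it was highest in the control library, at 31.5, 15.3 and 7.62 CPM. Lyz1 therefore made up 1.57% of the counts of the pair in control (0.80 to 3.08, Wilson interval), 52.4% in NEC (47.2 to 57.6) and 2.52% in PCI34051+NEC (0.861 to 7.15). The 2 genes are close copies, and reads that the counting could not place in either are missing from both.

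Itln1 encodes intelectin, a lectin for sugars on microbial surfaces that Paneth and goblet cells secrete (ENSMUSG00000038209, chr1:171518122-171535294, minus strand). It had 1 count in control, 114 in NEC and 0 in PCI34051+NEC, or 0.0629, 10.4 and 0 CPM. Nearly all of its counts were thus in the NEC library. The ratio of NEC to control was 165 (29.1 to 6592), and Itln1 was at least 52.8-fold lower in PCI34051+NEC than in NEC against a floor of 3 counts per library. Itln1 and Lyz1 shared this shape: high in NEC and near 0 in both other libraries.

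Mmp7, matrilysin, is the protease that cuts pro-defensins into active alpha-defensins (ENSMUSG00000018623, chr9:7692090-7699585, plus strand). It had 2, 160 and 51 counts, or 0.126, 14.6 and 3.35 CPM. Unlike Lyz1 it kept a clear level in PCI34051+NEC. The ratio of NEC to control was 116 (31.6 to 967), that of PCI34051+NEC to control was 26.6 (7.0 to 226), and PCI34051+NEC was 4.36-fold lower than NEC (3.16 to 6.10). An annotated gene on the opposite strand, AV064505, overlaps Mmp7, and the strand setting of the counting is not given in the sources used here.

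Ang4 encodes a microbicidal ribonuclease of Paneth and goblet cells (ENSMUSG00000060615, chr14:51763878-51773590, minus strand). It had 15, 9 and 3 counts, or 0.944, 0.822 and 0.197 CPM, and so did not follow Lyz1. NEC and control differed by less than counting error, with a ratio of 0.871 (0.336 to 2.12). PCI34051+NEC was 4.79-fold lower than control (1.35 to 25.8), from 3 counts. Its relative Ang was lowest in NEC, at 71.1, 17.2 and 34.9 CPM, as was Rnase4, at 388, 104 and 375 CPM. Those 2 genes are transcribed from shared promoters, so their counts may be uncertain. The inhibitor of these enzymes, Rnh1, was at 227, 144 and 256 CPM.

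The alpha-defensins, the main Paneth cell peptides, were counted in the NEC library above all. Of 22 Defa genes in the table, 10 had no count in any library, and 10 were measured between NEC and control. All 10 were called higher in NEC than in control and lower in PCI34051+NEC than in NEC, but 9 of them reached 1 CPM only in the NEC library. The shares of all measured genes so called were 24.2% and 25.6%. In each of these comparisons 4 of the 10 were called with a minimum of 5 CPM, and 6 with a pseudocount of 4. The counts of all 22 Defa genes summed to 107, 930 and 204, or 6.73, 84.9 and 13.4 CPM. Defa17 had 7, 171 and 3 counts, close to Lyz1, and Defa22 had 4, 111 and 0. Defa24 stood apart from them, at 5.47, 32.3 and 13.0 CPM, with PCI34051+NEC 2.38-fold above control (1.84 to 3.09). It made up 81.3% of all Defa counts in control (72.9 to 87.6), 38.1% in NEC (35.0 to 41.2) and 97.1% in PCI34051+NEC (93.7 to 98.6). These genes are near-identical copies, so the counts of any 1 of them are uncertain.

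Other genes linked to Paneth cells went both ways. Between NEC and control, 7 of 15 measured genes of that list passed 2-fold on the higher side and 2 on the lower. Over all measured genes 24.2% and 22.9% did. The list's median log2 fold was 0.90. The receptor tyrosine kinase gene Kit was at 16.1, 72.1 and 16.1 CPM, the vesicle coat gene Copz2 at 5.60, 34.6 and 3.48 CPM and the stress gene Nupr1 at 27.4, 86.9 and 10.6 CPM. Ephb3, a receptor that positions Paneth cells in the crypt, was at 3.08, 10.7 and 3.68 CPM. Pla2g2a, with 0, 31 and 0 counts, and Wnt3, with 6, 30 and 6, were also called higher in NEC. Other members were lowest in NEC: the peptide hormone gene Guca2b was at 732, 297 and 947 CPM, the R-spondin receptor gene Lgr4 at 47.9, 21.6 and 79.2 CPM, and the mucosal pentraxin Mptx1 had 5, 1 and 34 counts. Mptx1 was not measured between NEC and control, and Guca2b, Mptx1, Pla2g2a and Wnt3 were named after their values were seen. Against NEC, 6 of 16 were called lower in PCI34051+NEC and 3 higher, beside 25.6% and 25.0% of all genes. Kit is also expressed by mast cells and by pacemaker cells of the gut wall.

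Transcription factors of the secretory lineage were measured at low to moderate levels. Of 11 measured factors, 6 were at least 2-fold higher and 1 lower in NEC than in control, beside 24.2% and 22.9% of all measured genes. The median log2 fold of the factors was 1.00 (0.88 if any 0 is replaced by the floor of 3 counts). Spdef, which drives goblet and Paneth cell maturation, was at 5.35, 25.7 and 6.50 CPM, and Sox9, which Paneth cells require, at 2.83, 8.40 and 5.12 CPM. The lineage-defining factors did not share that side: Atoh1 had 34, 2 and 14 counts and Gfi1 had 12, 0 and 5, both lowest in NEC. These 2 were singled out after their values were seen, and Gfi1 was not measured in any comparison. Xbp1 was also lowest in NEC, at 101, 57.1 and 117 CPM. Against NEC, 1 of 10 measured factors (Xbp1) was called higher in PCI34051+NEC and 2 lower, beside 25.0% and 25.6% of all genes. Of 10 measured factors, none was 2-fold apart between PCI34051+NEC and control, where 13.1% of all measured genes were.

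Reg3b and Reg3g encode secreted C-type lectins that bind bacterial surfaces, and they behaved unlike the granule genes. Reg3b (ENSMUSG00000071356, chr6:78370657-78373466, plus strand) had 181, 246 and 347 counts, or 11.4, 22.5 and 22.8 CPM. Both model libraries lay above the control and were level with each other. It was 1.97-fold higher in NEC than in control (1.62 to 2.40), 2.0-fold higher in PCI34051+NEC than in control (1.67 to 2.41), and at a ratio of 1.01 between the model libraries (0.859 to 1.2). Reg3g (ENSMUSG00000030017, chr6:78466269-78468872, minus strand) had 15, 18 and 27 counts, or 0.944, 1.64 and 1.77 CPM. Its ratios to control were 1.74 (0.829 to 3.71) and 1.88 (0.965 to 3.8), within counting error.

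A relative in the same cluster, Reg3a, followed Lyz1 instead. Reg3a had 1, 207 and 8 counts, or 0.0629, 18.9 and 0.526 CPM, with a ratio of NEC to control of 300.5 (53.3 to 11924) and a level in PCI34051+NEC 36.0-fold below NEC (17.9 to 84.4). Of the counts of Reg3a, Reg3b, Reg3d and Reg3g together, Reg3a took 0.508% in control (0.0897 to 2.82), 43.1% in NEC (38.8 to 47.6) and 2.08% in PCI34051+NEC (1.06 to 4.05). Reg3b took 91.9%, 51.2% and 90.1%. Reg3d had 0, 9 and 3 counts. Reg4, a lectin of enteroendocrine and goblet cells, was nearly level at 23.5, 19.7 and 20.6 CPM, and Reg1 and Reg2 were listed at 0 in all libraries.

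**Figure D3:**
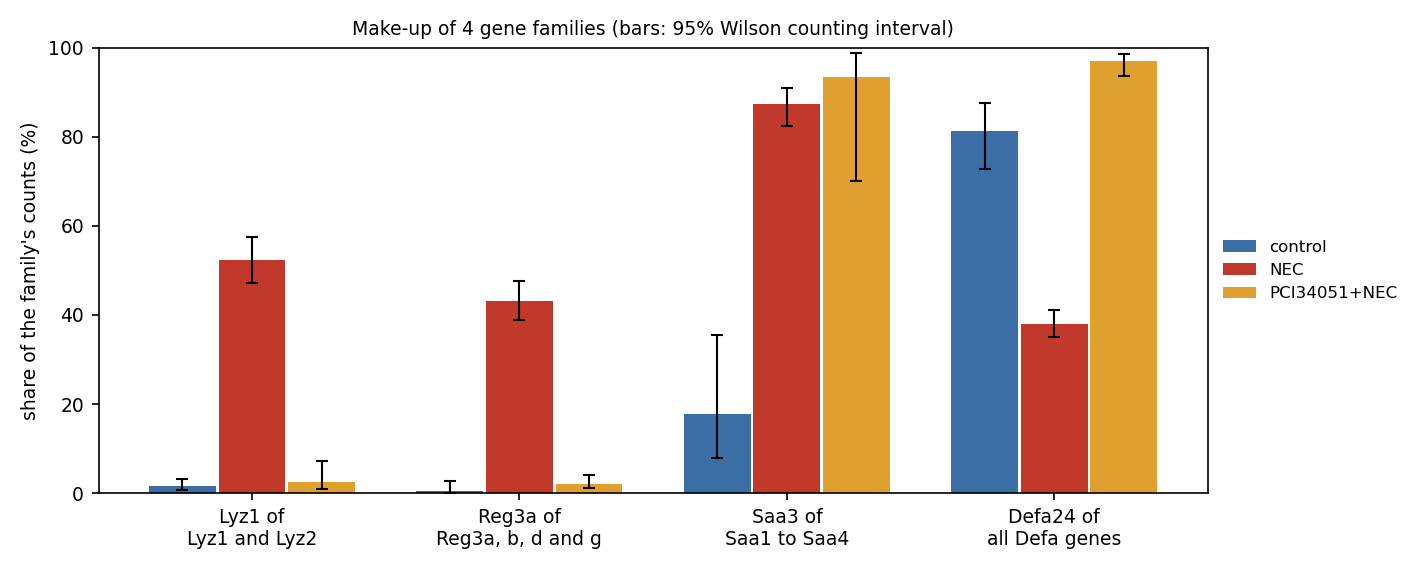
Share of a family's counts (percent) taken by Lyz1, Reg3a, Saa3 and Defa24 in each library, with 95% Wilson intervals that cover counting error only. The Lyz1 and Reg3a shares are high in NEC alone (52.4% and 43.1%), the Defa24 share is lowest there, and the Saa3 share is high in both model libraries.

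Lcn2, Saa3 and Lrg1, the acute phase genes of the set, were lowest in control and highest in NEC. Lcn2, lipocalin 2, withholds iron from bacteria by binding their siderophores (ENSMUSG00000026822, chr2:32384633-32388252, minus strand). It had 3, 133 and 53 counts, or 0.189, 12.1 and 3.48 CPM. The ratio of NEC to control was 64.3 (21.5 to 316), that of PCI34051+NEC to control was 18.4 (5.98 to 92.3), and PCI34051+NEC was 3.49-fold below NEC (2.52 to 4.89). Lcn2 was thus above control in both model libraries. Slc22a17, its cell surface receptor, was at 11.8, 68.8 and 12.4 CPM, while the iron store genes Fth1 (2511, 776 and 2495 CPM) and Ftl1 (5024, 1762 and 2874 CPM) were lowest in NEC.

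Lrg1 encodes a leucine-rich secreted glycoprotein of the acute phase that modulates TGF-beta signalling in endothelium (ENSMUSG00000037095, chr17:56119678-56122001, minus strand). It had 6, 358 and 71 counts, or 0.378, 32.7 and 4.66 CPM, with both model libraries above the control. It was 86.6-fold higher in NEC than in control (39.4 to 238), 12.4-fold higher in PCI34051+NEC than in control (5.40 to 34.8) and 7.01-fold lower in PCI34051+NEC than in NEC (5.42 to 9.18). Of its 8 measured endothelial TGF-beta receptors and partners, 2 were called higher and 2 lower in NEC than in control, near the shares over all genes (24.2% and 22.9%). Eng, an endothelial co-receptor for TGF-beta, was at 34.4, 163 and 32.8 CPM, whereas the receptor gene Tgfbr2 was at 103, 47.2 and 175 CPM.

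Saa3 encodes a serum amyloid A made outside the liver (ENSMUSG00000040026, chr7:46711998-46715700, minus strand). It had 5, 199 and 14 counts, or 0.315, 18.2 and 0.920 CPM. It was 57.8-fold higher in NEC than in control (24.3 to 180) and 19.8-fold lower in PCI34051+NEC than in NEC (11.5 to 36.8). The ratio of PCI34051+NEC to control was 2.92 (0.995 to 10.4), at the edge of counting error. The liver-type Saa1 did not follow it, with 19, 16 and 0 counts, and Saa2 had 3, 3 and 0. Saa3 took 17.9% of the counts of Saa1 to Saa4 in control (7.88 to 35.6), 87.3% in NEC (82.3 to 91.0) and 93.3% in PCI34051+NEC (70.2 to 98.8), the last from 15 counts. Close copies within this family can share reads.

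Ltf, lactoferrin, binds iron and bacterial lipopolysaccharide and is known from milk, secretions and neutrophil granules (ENSMUSG00000032496, chr9:111019271-111042767, plus strand). It had 622, 5 and 420 counts, or 39.1, 0.457 and 27.6 CPM. It was the only one of the 10 genes with its lowest level in NEC beyond counting error. NEC was 85.7-fold below control (36.5 to 265), PCI34051+NEC was 60.4-fold above NEC (25.7 to 187), and control was 1.42-fold above PCI34051+NEC (1.25 to 1.61). Its relative Meltf, melanotransferrin, was also lowest in NEC, at 7488, 828 and 4963 CPM, as was the transferrin receptor gene Tfrc, at 51.3, 19.0 and 27.7 CPM. Trf was at 1.95, 2.74 and 0.723 CPM, and Tfr2 was highest in NEC, with 5, 76 and 9 counts. The 8 genes of mammary epithelium and milk had 6, 6 and 4 counts in all, with Lalba, Glycam1 and Csn1s2a at 0 throughout.

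Per kilobase of annotated exon, the order of the 10 genes differed between libraries. In the control library Ltf (11.3 CPM per kb) and Reg3b (9.97) led and had overlapping counting intervals, Ang4 followed at 1.33, and the other 7 genes were at 0.446 or less. In the NEC library Lrg1 (23.2) and Reg3b (19.7) led with overlapping intervals. Mmp7 (13.7) and Lyz1 (13.3) came next and overlapped, then Itln1 (9.12) and Saa3 (6.97), which overlapped, and Lcn2 (4.63). Ltf was last there, at 0.132. In the PCI34051+NEC library Reg3b led at 20.0 and Ltf followed at 8.0, with Lrg1 (3.31) and Mmp7 (3.14) overlapping behind them.

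Genes with a pattern like that of Lyz1 and Ltf were sought by the Euclidean distance between log2(CPM + 1) values centred over the 3 libraries, among 12021 genes at 5 CPM or more in 1 library. Nearest to Lyz1 were Defa17 (distance 0.07), Tmem145 (0.09), Doc2g (0.17), Shd (0.18) and Cabp1 (0.21), and 375 genes lay within a distance of 1. Nearest to Ltf were the Y-linked Kdm5d (0.19) and Uty (0.44), the iron exporter gene Slc40a1 (0.63), the fetal serum protein gene Afp (0.65) and Igfals (0.67), and only 16 genes lay within 1. Kdm5d had 480, 0 and 345 counts and Uty 569, 3 and 548. The NEC library therefore also differed from the other two in its Y-linked counts, and the sex of the pups cannot be told apart from the groups. With 3 libraries, nearness describes shape alone.

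Further acute phase genes, of the liver-type list, were mostly higher in NEC than in control and divided with PCI34051. Between NEC and control, 12 of 18 measured genes were called higher and 1 lower, beside 24.2% and 22.9% of all measured genes. Their median log2 fold was 1.96, beside -0.03 over all measured genes, and 7 of the 18 reached 1 CPM only in NEC. The haemoglobin binder Hp was at 0.503, 31.4 and 3.81 CPM, the protease inhibitor Serpina3n at 1.07, 31.1 and 5.19 CPM, the lipopolysaccharide-binding protein gene Lbp at 1.07, 30.9 and 6.70 CPM and the matrix-binding Itih3 at 1.26, 17.7 and 3.61 CPM. Between PCI34051+NEC and control, 5 of 14 measured genes were called higher, 3 lower and 6 neither, beside 6.55% of all genes on each side. Their median log2 fold was 0.23 beside -0.00 over all. With a pseudocount of 4 these counts were 1 higher and 0 lower. Of the 14, 3 reached 1 CPM only in PCI34051+NEC and 2 (Hpx and Fgg) only in control. The 4 genes above stood higher than control in PCI34051+NEC, by 7.57-fold (3.60 to 18.4) for Hp, 4.85-fold (2.85 to 8.74) for Serpina3n, 6.26-fold (3.73 to 11.2) for Lbp and 2.87-fold (1.69 to 5.06) for Itih3. The 3 called lower there were Hpx (1.95, 11.1 and 0.460 CPM), the fibrinogen gene Fgg (1.76, 11.7 and 0.263 CPM) and Serpina3g (8.43, 47.7 and 3.42 CPM). Between PCI34051+NEC and NEC, 12 of 18 were at least 2-fold lower and 1 higher, beside 25.6% and 25.0% of all measured genes. Of these 18, 6 reached 1 CPM only in NEC, so their difference was partly set by the filter.

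**Figure D4:**
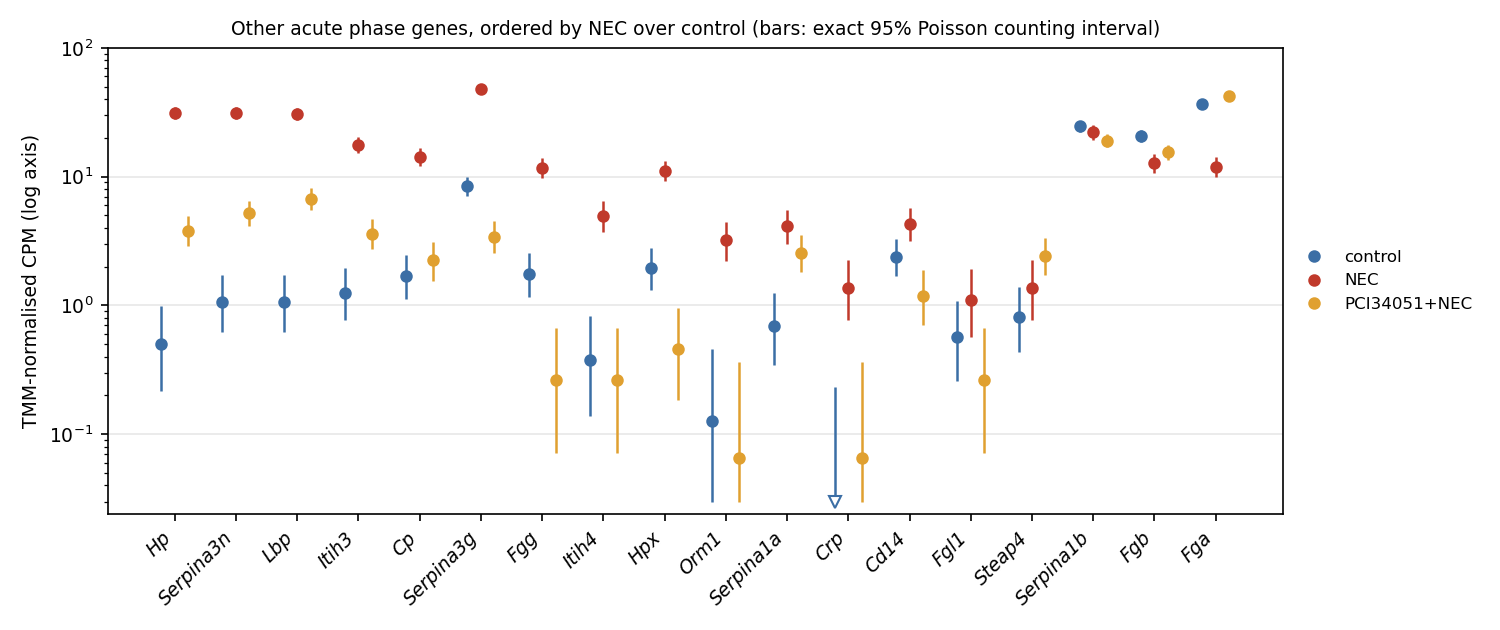
TMM-normalised CPM (log axis) of the acute phase genes at 1 CPM or more in a library, ordered by NEC over control, with exact 95% Poisson counting intervals that end at the axis; the open triangle marks a count of 0. From Hp to Itih3 the PCI34051+NEC level lies between control and NEC, whereas Fgg, Hpx and Serpina3g lie below control there and Fga is lowest in NEC.

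Among genes of the cytokine pathways that induce the acute phase, 17 IL-6, LIF and STAT3 genes were measured between NEC and control. Of these, 8 were called higher in NEC, 3 lower and 6 neither, beside 24.2% higher and 22.9% lower over all measured genes. The list's median log2 fold was 0.94 (0.75 if any 0 is replaced by the floor). With a pseudocount of 4, 5 were called higher and 1 lower. The 4 genes with the largest differences at 5 CPM or more were all higher in NEC. The oncostatin M receptor gene Osmr was at 5.22, 80.0 and 13.3 CPM, the shared receptor subunit Il6st at 44.7, 222 and 64.5 CPM, the STAT3 feedback inhibitor Socs3 at 52.5, 214 and 59.7 CPM and Bcl3 at 22.9, 94.8 and 20.9 CPM. Stat3 itself was at 208, 201 and 232 CPM. Il6 had 0, 15 and 1 counts, and Il22 and Il17a had none in any library. The IL-17 receptor subunit gene Il17rc was at 11.6, 82.7 and 11.2 CPM, and the IL-22 receptor gene Il22ra1 was highest with PCI34051, at 33.0, 18.3 and 90.3 CPM.

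Of 14 measured genes of NF-kB and C/EBP factors and their cytokines, 2 were at least 2-fold higher and 3 lower in NEC than in control, beside 24.2% and 22.9% of all genes, with a median of 0.27. Cebpd, an acute phase factor, was at 10.9, 118 and 44.1 CPM, with PCI34051+NEC between the other two libraries. Cebpa ran the opposite way, at 181, 49.6 and 105 CPM. Rela was level at 63.4, 63.2 and 64.2 CPM, and Il1b had 15, 7 and 27 counts.

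Of 18 other mucosal antimicrobial genes measured, 5 were at least 2-fold higher and 7 lower in NEC than in control, beside 24.2% and 22.9% of all genes, with a median of 0.38. Dmbt1, a mucosal scavenger receptor that aggregates bacteria, was at 10.5, 92.1 and 48.3 CPM, and the antiprotease Slpi was at 11.2, 92.9 and 38.8 CPM. The epithelial Sprr2a3, at 32.1, 0.913 and 11.2 CPM, Lypd8, which keeps flagellated bacteria off the epithelium, at 451, 82.1 and 449 CPM, and the mucin gene Muc13, at 1751, 425 and 1622 CPM, were lowest in NEC, as Ltf was. Sprr2a3, its relatives Sprr2a2 and Sprr2a1, and Dmbt1 had the largest differences of the list between NEC and control at 5 CPM or more. Close relatives can share reads, so the level of Sprr2a3 is uncertain.

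Markers of other cell types that can carry these genes also moved between the libraries, and their part in the results was not tested. Over all measured genes, 24.2% were called higher and 22.9% lower in NEC than in control. Of 12 smooth muscle markers, 10 were at least 2-fold higher and none lower in NEC than in control, with summed levels of 1823, 13115 and 1695 CPM. Of 13 epithelial markers, 6 were lower and 3 higher, with sums of 9763, 6211 and 11275 CPM. Fibroblast markers had 8 of 11 higher and none lower (949, 3545 and 961 CPM), and endothelial markers 5 of 12 higher and none lower (249, 403 and 272 CPM). Goblet cell markers, without Muc2, had 4 of 11 higher and 5 lower (960.0, 318 and 465 CPM).

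Liver and fat markers can accompany the acute phase genes. The calls below between NEC and control stand beside 24.2% of all measured genes higher and 22.9% lower. The hepatocyte list shares genes such as Fgg with the liver-type acute phase list, so their counts are not separate results. Of 13 hepatocyte markers, 11 were at least 2-fold higher and 1 lower in NEC than in control, with none at 0 in any library and sums of 416, 347 and 250 CPM led by Ttr. Alb, the main hepatocyte product, was at 9.31, 100.4 and 0.394 CPM. In PCI34051+NEC against control, 2 of 10 measured hepatocyte markers were called higher (Serpina1a and Cyp3a11), 3 lower (Alb, Fgg and Cyp2e1) and 5 neither. Of 8 measured adipocyte markers, 4 were higher and none lower in NEC, with sums of 309, 412 and 631 CPM. In PCI34051+NEC against control, 4 of 5 measured adipocyte markers were called higher and 0 lower, beside 6.55% of all genes on each side. The list as a whole was therefore not high in NEC alone. Within it the low-count genes Adipoq (0, 14 and 0 counts), Plin1 (0, 20 and 0) and Retn (1, 31 and 1) were counted almost in NEC alone. These genes were named after their values were seen.

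Myeloid markers were mixed, with summed levels highest in control and some single genes highest in NEC. Their counts of calls below stand beside 24.2% of all genes higher and 22.9% lower in NEC than in control. Of 8 measured neutrophil markers, 3 were higher and 2 lower in NEC than in control, with sums of 56.9, 16.8 and 31.4 CPM carried by Mmp9 (28.1, 2.37 and 11.8 CPM) and Padi4 (24.9, 1.64 and 12.4 CPM). The granule genes were few: Ngp had 0, 19 and 4 counts, S100a8 4, 20 and 24, S100a9 4, 9 and 16, Camp 23, 17 and 14, Elane 0, 1 and 0, Mpo 0, 4 and 0, and Ctsg none. Of 13 macrophage markers, 2 were higher and 4 lower in NEC, with sums of 864, 269.8 and 405 CPM. Csf1r was at 406, 58.8 and 160 CPM. Cd163, a haemoglobin scavenger receptor of tissue macrophages, went the other way with 7, 268 and 76 counts, or 0.440, 24.5 and 4.99 CPM, and was among the 5 genes nearest in pattern to Lrg1 (distance 0.39) and to Mmp7 (0.25).

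**Figure D5:**
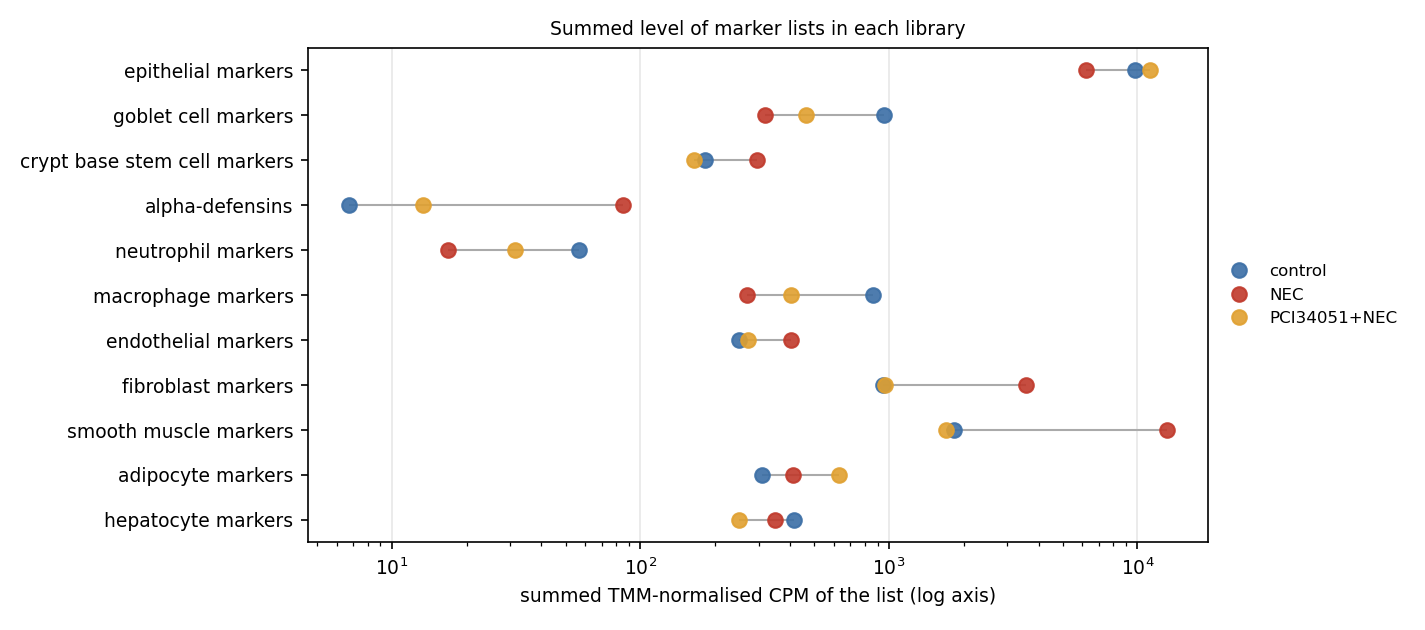
Summed TMM-normalised CPM (log axis) of marker lists for control, NEC and PCI34051+NEC, 1 point per library. Smooth muscle, fibroblast and alpha-defensin sums are highest in NEC, while neutrophil, macrophage and goblet cell sums are highest in control.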

How the data were processed

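Intestinal RNA of 3 libraries was sequenced with paired 150 bp reads. Raw counts per gene symbol are what the authors deposited. The submitters' processing notes name mm10. The sources used here give no aligner, annotation, strand setting or filter. The PCI34051+NEC column matched its sample's labels only in part, and was assigned because no other sample names an inhibitor. The table had 0 unused columns.

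The floor of 3 counts came to 0.189, 0.274 and 0.197 CPM in control, NEC and PCI34051+NEC. Since PCR copies of a molecule are not independent, intervals and floors reflect counting error alone. TMM factors for the 3 libraries were computed in R 4.3.3 with edgeR 4.0.16, and the pseudocount was 1 CPM. No replicated test was possible.

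Annotation came from GENCODE M21, which held 21926 of the 21983 symbols. The members and lists were chosen with earlier results of these data known. Beyond the 10 members, the genes named are relatives with 5 counts or more and up to 4 per list, ranked by difference among those reaching 5 CPM; those named otherwise, such as Stat3, Il6, Rela, Il1b, Hpx, Fgg, Alb, Guca2b, Mptx1, Cyp2e1, Cyp3a11, Serpina1a, Adipoq, Kdm5d and the neutrophil genes, were chosen after their values were seen. Listed members were left out of the other lists. The fold and interval calculations were tested on simulated data. The simulated differences were set only in genes of moderate to high level, so low counts such as those of Itln1 or Ang4 were not covered. Folds as large as those of Lyz1 or Ltf were not covered either. The alternatives tried were scaling by DESeq2 1.42.0 size factors, by total counts or by TMM without the mitochondrial and 50 most abundant genes, thinning to the smallest library, pseudocounts of 0.25 and 4, a minimum of 0 or 5 CPM, and calls at 1.5-fold or where the counting interval lay past 2-fold. Python 3.11.15 with scipy 1.17.1, matplotlib 3.10.9 and Biopython 1.88 was used.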

Additional observations from a re-analysis of the deposited data

How the results depend on the processing

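Of 60 counts of called members under the alternatives, 58 stayed within 1.5 times the main count. Counts without a minimum CPM, of members and of lists, could not differ, since a call already needs 1 CPM in the higher library. The exceptions were in PCI34051+NEC against control, where the 3 genes called higher (Mmp7, Lcn2 and Lrg1) became 0 with a pseudocount of 4 and 0 with a minimum of 5 CPM, since all 3 lay under 5 CPM. Of 180 member log2 folds, 171 moved by less than the counting error, 9 moved further (8 of them under the pseudocount of 4), and 0 changed sign after being called. Counting error here was the distance from the middle to an end of the gene's log2 counting interval. That distance is wide for low counts and without limit where a count is 0, so such folds could hardly move by this measure. Itln1 in PCI34051+NEC over NEC ran from -5.41 (pseudocount 0.25) to -1.85 (pseudocount 4) and still counted as unmoved. Of 300 counts for 5 other lists, 35 moved by more than 1.5 times. With a minimum of 5 CPM, 4 in place of 10 alpha-defensins were called higher in NEC than in control. With a pseudocount of 4, 1 in place of 5 acute phase genes was called higher in PCI34051+NEC than in control. Depth limits the genes with few counts, among them Ang4, Reg3g, Itln1, Lyz1 and Saa3, which had 0 to 27 counts outside the NEC library. No paired analysis was possible because each group has 1 library.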

Other observations

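Matrix metalloproteinases other than Mmp7 differed in both directions. Of 14 measured, 6 were at least 2-fold higher and 2 lower in NEC than in control, beside 24.2% and 22.9% of all genes. The membrane-type Mmp14 was at 41.5, 242 and 39.6 CPM in control, NEC and PCI34051+NEC, and Mmp23 at 5.85, 34.0 and 8.01 CPM, whereas Mmp9 was lowest in NEC. The inhibitor gene Timp1 was at 1.07, 12.2 and 2.17 CPM and Timp3 at 187, 106 and 469 CPM. Mmp7 took 0.0483% of all Mmp counts in control (0.0133 to 0.176, Wilson interval), 3.16% in NEC (2.71 to 3.68) and 1.15% in PCI34051+NEC (0.877 to 1.51).

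Genes of intestinal regions also differed between the libraries. Over all measured genes, 24.2% were called higher and 22.9% lower in NEC than in control. Of 8 measured proximal markers, 3 were called higher and 2 lower, with summed levels of 1201, 245 and 1818 CPM. Of 9 measured ileum and colon markers, 2 were called higher and 5 lower, with sums of 3599, 782 and 2937 CPM. In PCI34051+NEC against NEC, 7 of 9 ileum and colon markers were called higher and 0 lower, beside 25.0% and 25.6% of all genes. Proximal markers had 6 of 9 higher and 1 lower there, and epithelial markers 5 of 13 higher and 1 lower. The higher levels were thus not particular to the ileum and colon list. Gata4, a factor of the proximal small intestine, was at 3.21, 8.95 and 46.4 CPM, and the lactase gene Lct at 192, 84.6 and 813 CPM. Gata4 and Lct were singled out after their values were seen, and the labels do not name the segment.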
